A study of Mus musculus with 4 samples.

Results

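Ucp1-positive beige adipocytes of mouse inguinal white adipose tissue (iWAT) were taken from a single-nucleus RNA sequencing experiment, in which RNA molecules of each nucleus are counted by their unique molecular identifiers (UMIs). A nucleus was counted as Ucp1-positive when it held 800 or more UMIs, at least 1 UMI of Ucp1, and UMIs of at least 2 of the 5 adipocyte genes Adipoq, Plin1, Plin4, Lipe and Pparg. The members were thus chosen by measured UMIs of these 6 genes and by depth. Of 15329 barcodes, 12518 held 800 or more UMIs and 6816 of these were adipocyte nuclei. The 510 Ucp1-positive nuclei made up 7.48% of the adipocyte nuclei and 3.33% of all barcodes, and they came from 6 of 12 mice. They are compared with the 3791 Ucp1-negative adipocyte nuclei of those same 6 mice.

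The study asked how aging changes the response of iWAT to cold. Male C57BL/6 mice, young (9 weeks) or aged (57 weeks), were all acclimated to 30 °C for 3 weeks, a temperature at which a mouse needs no extra heat production. For the next 2 weeks the thermoneutral groups (TN) stayed at 30 °C, the 3D groups stayed there for 11 days and spent the last 3 days at 6 °C, and the 14D groups spent 14 days at 6 °C. Each of the 6 groups had 2 mice, and each mouse was marked with 2 hashtag antibodies and run in 1 of 2 multiplexed pools, so that replicate numbers 1 and 2 also give the pool. None of the groups carried a transgene, and nuclei from all cell types of the tissue were sorted and sequenced together.

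Beige adipocytes are fat cells that arise within white depots during cold exposure. They are rich in mitochondria, and the uncoupling protein encoded by Ucp1 lets protons return across the inner mitochondrial membrane without ATP synthesis, so that fuel oxidation gives heat. Noradrenaline released by sympathetic nerves acts on beta-adrenergic receptors, raises cAMP and lipolysis, and induces Ucp1 together with Dio2, which makes active thyroid hormone inside the cell, and Ppargc1a, which encodes the coactivator PGC-1alpha that drives mitochondrial genes.

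The promoters of these 3 genes are shown because Ucp1 chose the nuclei and Dio2 and Ppargc1a are compared within them between 3 and 14 days of cold. Each sequence runs 5′ to 3′ along the gene from 250 bases before to 50 bases after the RefSeq transcription start in GRCm38.p6. Capitals mark a cAMP response element, either its full form TGACGTCA or its short form TGACG, searched on both strands (the short form reads CGTCA on the other strand and is part of the full form on both strands).
Ucp1, chr8:83290098-83290397, plus strand: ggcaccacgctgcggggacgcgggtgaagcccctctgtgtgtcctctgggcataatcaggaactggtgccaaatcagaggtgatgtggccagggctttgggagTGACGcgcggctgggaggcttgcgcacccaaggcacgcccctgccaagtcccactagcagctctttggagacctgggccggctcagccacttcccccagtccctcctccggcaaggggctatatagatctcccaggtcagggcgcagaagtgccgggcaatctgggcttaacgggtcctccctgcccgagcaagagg
Dio2, chr12:90738989-90739288, minus strand: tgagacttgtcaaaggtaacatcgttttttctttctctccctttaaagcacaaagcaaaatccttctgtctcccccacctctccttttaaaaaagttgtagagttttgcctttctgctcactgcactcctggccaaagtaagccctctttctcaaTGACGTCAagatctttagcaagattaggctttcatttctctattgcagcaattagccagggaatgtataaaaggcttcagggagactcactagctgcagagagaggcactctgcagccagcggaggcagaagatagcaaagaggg
Ppargc1a, chr5:51567676-51567975, minus strand: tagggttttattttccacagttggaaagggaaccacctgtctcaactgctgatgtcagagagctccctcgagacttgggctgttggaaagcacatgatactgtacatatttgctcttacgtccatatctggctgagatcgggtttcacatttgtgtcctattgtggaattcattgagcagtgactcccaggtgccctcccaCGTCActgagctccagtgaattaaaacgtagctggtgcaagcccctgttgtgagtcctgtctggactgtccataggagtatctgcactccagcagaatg
The Ucp1 window held 1 short form, 147 bases before the start. The Dio2 window held the full form, 95 bases before the start, although GENCODE M21 ends the Dio2 gene body at 90738438, outside this window. The Ppargc1a window held 1 short form on the other strand, 49 bases before the start. Of 32851 RefSeq promoters of the same length, 1.79% held the full form and 20.8% the short form. The element of the oestrogen-related receptors, TCAAGGTCA, was in none of the 3 windows and in 0.423% of all promoters. A match describes the letters in the window and was not tested as a binding site.

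The Ucp1-positive nuclei lay in 3 of the 6 groups. In young 3D mice they were 65 of 732 adipocyte nuclei in replicate 1 (8.88%, exact 95% interval 6.92 to 11.2) and 14 of 518 in replicate 2 (2.70%, 1.49 to 4.49). In young 14D mice they were 235 of 1157 (20.3%, 18.0 to 22.7) and 137 of 728 (18.8%, 16.0 to 21.9), and in aged 14D mice 33 of 669 (4.93%, 3.42 to 6.86) and 26 of 497 (5.23%, 3.45 to 7.57). Both young 14D mice were above all other mice, the aged 14D mice lay within the range of the young 3D mice, and the young 3D mice differed most from each other. Ucp1 itself chose the nuclei, so that these shares are a description without a test, and the intervals cover counting error only.

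In the 4 TN mice and the 2 aged 3D mice no adipocyte nucleus held a Ucp1 UMI in the deposited matrices. A count of 0 allows shares of up to 0.587% to 1.40% in these mice, and 0.613% and 0.592% in the aged 3D mice. However, a gene with fewer than 6 UMIs in an aliquot was not listed by the authors. Up to 5 Ucp1 UMIs could thus be hidden in each of the 2 aliquots of a mouse. Hidden UMIs, each in a nucleus of its own, would alone make up to 2.04% and 1.97% in the aged 3D mice, before any counting error. In the TN mice they would make up to 1.96% to 4.65%. A share such as the 2.70% of young 3D replicate 2 thus cannot be told apart from these mice at this depth.

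**Figure D1:**
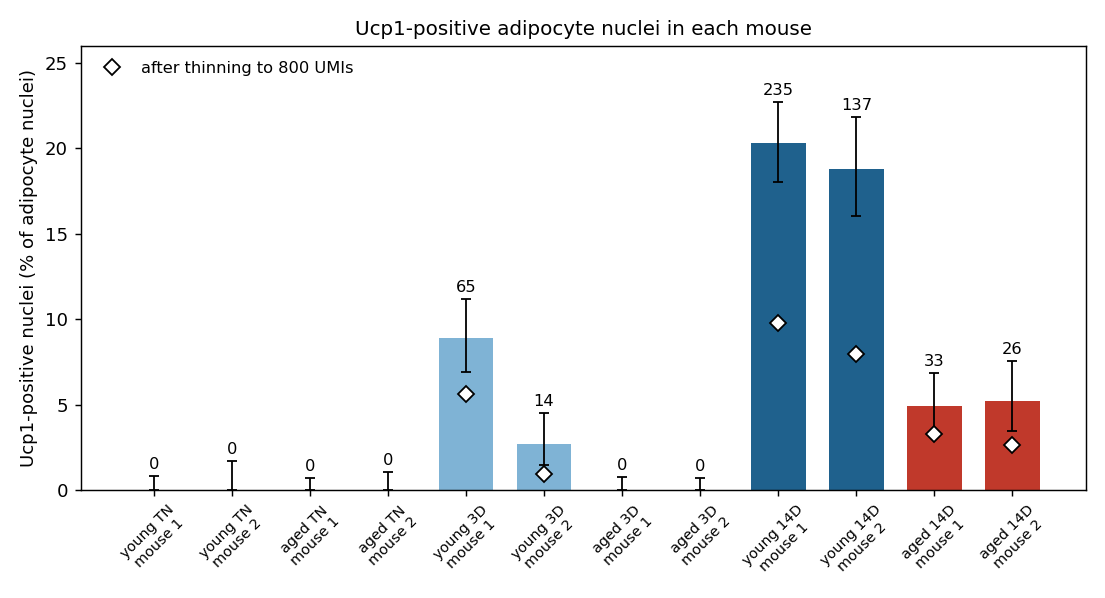
Share of adipocyte nuclei that were Ucp1-positive, in percent (y axis), for each of the 12 mice in the 6 groups (x axis, where mouse 1 and mouse 2 are replicates 1 and 2). Bars are shares with exact 95% binomial intervals for counting error only, numbers are positive nuclei, and diamonds are shares after thinning to 800 UMIs. The young 14D mice sit at 20.3% and 18.8%, the aged 14D mice at 4.93% and 5.23%, the young 3D mice at 8.88% and 2.70%, and all TN and aged 3D mice at 0.

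Depth differed between mice, and a deeper nucleus shows a Ucp1 UMI more readily. The median UMIs of a Ucp1-positive nucleus ran from 2046 in young 3D replicate 1 to 5597 in young 14D replicate 2, and the positive nuclei had a higher median than the negative nuclei in each of the 6 mice, with 3697 against 2930 UMIs over all. When every nucleus was thinned to 800 UMIs, the shares were 5.60% and 0.965% in young 3D, 9.77% and 7.97% in young 14D and 3.29% and 2.62% in aged 14D mice. Young 14D mice were still the highest. Of 669 immune nuclei, which should lack Ucp1, 2 held a Ucp1 UMI (0.299%, median depth 1552 UMIs). Both came from young 3D replicate 1, where they were 2 of 41 immune nuclei (4.88%), against 8.88% of its adipocyte nuclei.

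Most positive nuclei held few Ucp1 UMIs. A single Ucp1 UMI was found in 167 nuclei (32.7%), 2 in 108, 3 in 69, 4 in 49 and 5 or more in 117, and the highest count was 24. The Ucp1 level of the positive nuclei was 1324 and 690 UMIs per 1000000 UMIs (CPM) in young 3D, 819 and 748 in young 14D and 863 and 729 in aged 14D mice. Young 3D replicate 1 was the highest and the other 5 mice lay close together, and the rule itself sets this level from below. Just outside the rule, 5 nuclei with at least 700 UMIs held Ucp1 and 2 adipocyte genes, and just inside it 2 positive nuclei held 800 or more but under 900 UMIs. Another 25 nuclei held 800 UMIs and Ucp1 but fewer than 2 adipocyte genes.

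The nuclei were also described with 5 markers that the rule did not use. These were Cidea, a lipid droplet protein of thermogenic fat, the thioesterase gene Acot11, the septin gene Sept9, the nuclear receptor gene Esrrg and Ppargc1a. They were chosen with earlier results of these data known, so their high levels are no separate check of the label. At least 1 of the 5 was found in 501 of 510 positive nuclei, at least 3 in 465 (91.2%) and all 5 in 238 (46.7%). Of the 3791 negative nuclei of the same mice, 519 (13.7%) held at least 3 and 128 (3.38%) held all 5. The negative nuclei with at least 3 markers were 24.9% of the negative nuclei in young 14D, 6.83% in young 3D and 5.69% in aged 14D mice. They were 1.81% in aged 3D, 0.151% in young TN and 0 in aged TN mice.

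Genes defining other cell types were summed over each list. Fibroblast genes stood at 24.6 to 168 CPM in positive and 149 to 493 in negative nuclei, and liver genes at 49.7 to 205 and 535 to 1095, with 5 of 7 liver genes at 0 in all positive nuclei. Muscle genes reached at most 2.37 CPM, with 6 of 7 at 0. Mural genes ranged from 0 to 93.5 CPM against 22.3 to 42.3, with Acta2 and Myh11 at 0. Immune genes ranged from 8.01 to 542 in positive and 45.1 to 82.4 in negative nuclei and were higher in 4 of 6 mice, with the 542 in the 14 nuclei of young 3D replicate 2. Endothelial genes ranged from 20.6 to 240 against 14.1 to 202 and were higher in 5 of 6 mice. The immune genes Mrc1 and F13a1 were called higher in positive nuclei, at 0 to 78.5 against 3.03 to 17.1 CPM for Mrc1 and 7.97 to 157 against 4.76 to 22.8 for F13a1, each in 5 of 6 mice. Without the nuclei that held 2 or more genes of the immune, endothelial, muscle or liver list (26 positive nuclei) both fell below the filter on low counts. Scrublet called 5.88% of positive and 5.30% of negative nuclei doublets, and the median mitochondrial share of UMIs was 0.116% in positive and 0.0148% in negative nuclei. The part of these nuclei in the differences below was not tested beyond leaving them out, and the 21 positive nuclei with 2 or more fibroblast genes were not left out by this rule. Of 3 genes of classical brown fat, Lhx8 was lower in positive nuclei by 1.75 on the log2 scale, Eva1a did not pass the filter on low counts and Zic1 was not analysed here.

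To ask what else set Ucp1-positive nuclei apart, UMIs were summed per mouse over positive and over negative nuclei, and tested with edgeR with the mouse as a block. The 6 genes of the rule were left out of the totals and of the test. Of 8520 genes tested, 1303 (15.3%) were higher and 1437 (16.9%) lower in positive nuclei at an adjusted p under 0.05, 32.2% in all. Of the 2740 genes called, 1978 lay on the same side in 6 of 6 mice, and 29.0% of all tested genes did so. The median of all genes was -0.05 on the log2 scale, and the counts of the lists below are to be read against these shares. Values are CPM, scaled by edgeR within each comparison, and gene positions are from GENCODE M21 on GRCm38. Values are given for replicates 1 and 2 of each group in that order.

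All 5 markers, which were chosen with earlier results of these data known, were higher in the positive nuclei. Cidea stood at 1692 and 1237 in young 3D, 1222 and 1265 in young 14D and 794 and 989 in aged 14D positive nuclei. In the negative nuclei of the same mice it stood at 131 and 99.3, 304 and 208, and 115 and 86.4. The 2 classes did not overlap in any group, and the difference was 2.99 ± 0.20 (log2 fold change ± SE, 6 mice, adjusted p = 2.39e-11). Esrrg (chr1:187608791-188214885, plus strand) stood at 3721 and 3103, 1881 and 1738, and 2119.8 and 2495 in positive nuclei against 547 and 557, 484 and 258, and 252 and 205 in negative nuclei. Its difference was 2.76 ± 0.18 (adjusted p = 2.34e-11). Acot11 (3.53 ± 0.33), Sept9 (3.95 ± 0.34) and Ppargc1a (2.02 ± 0.24) were also higher in 6 of 6 mice. Ppargc1a was at 3142 in young 3D replicate 2 and at 399 to 793 in the positive nuclei of the other 5 mice.

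**Figure D2:**
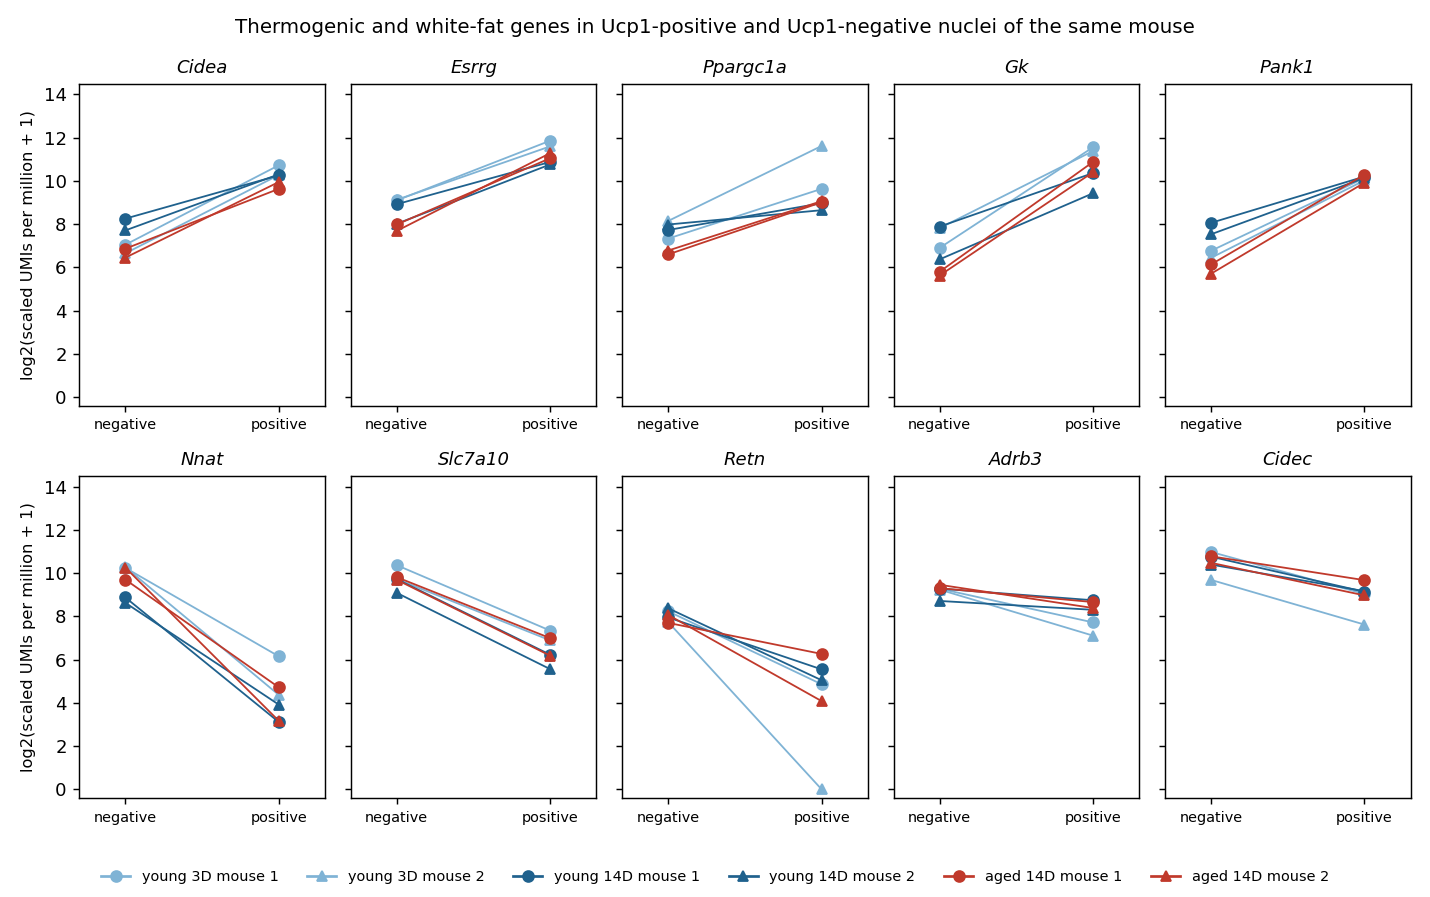
Levels of 10 genes in Ucp1-negative and Ucp1-positive adipocyte nuclei (x axis) of the 6 mice; the y axis is log2 of scaled CPM plus 1, lines join the 2 classes of 1 mouse, colour gives the group, and circles and triangles are replicates 1 and 2 (mouse 1 and mouse 2). Cidea, Esrrg, Ppargc1a, Gk and Pank1 rise in all 6 mice, and Nnat, Slc7a10, Retn, Adrb3 and Cidec fall in all 6.

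Among the regulators of thermogenic fat, 8 of 14 tested genes were higher and none was lower. Ppargc1b, a second PGC-1 coactivator, rose by 2.50 ± 0.19 on the log2 scale and stood at 2269 to 3495 CPM in positive against 300.4 to 1063 in negative nuclei. Ppara, the nuclear receptor for fatty acids, rose by 2.33 ± 0.19. Prdm16, a determinant of brown and beige fate, rose by 0.83 ± 0.15, with 452 to 1081 in positive and 317 to 593 in negative nuclei. Ebf2, an early factor of the same lineage, rose by 0.47 ± 0.15. Their differences were smaller than that of Ppargc1b. Irf4, a cold-responsive factor, was at 0 to 21.8 against 17 to 32 and was not called (adjusted p = 0.0696).

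All 13 tested effector genes were higher, with a median of 2.99 against -0.05 for all genes. The markers Cidea, Acot11 and Sept9 are among them, so this count partly repeats the marker result. Pank1, the kinase that opens coenzyme A synthesis, stood at 1123 and 1041, 1176 and 1124, and 1249.9 and 965 in the positive nuclei of young 3D, young 14D and aged 14D mice, and at 51.1 to 266 in negative nuclei. The positive nuclei of all 6 mice lay above the negative nuclei, and the difference was 3.29 ± 0.22. The potassium channel gene Kcnk3 (2.69 ± 0.20), the lipid droplet gene Plin5 (2.48 ± 0.26), the mitochondrial gene Letmd1 (2.30 ± 0.17), the fatty acid transporter gene Slc27a2 (3.40 ± 0.29) and Cox8b, a cytochrome oxidase subunit of thermogenic fat (2.03 ± 0.26), were higher in all 6 mice. Dio2 stood at 274 and 432 in young 3D, 58.7 and 45 in young 14D and 127 and 0 in aged 14D positive nuclei, against 0 to 21.8 in negative nuclei. Aged 14D replicate 2 held no Dio2 UMI in either class.

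**Figure D3:**
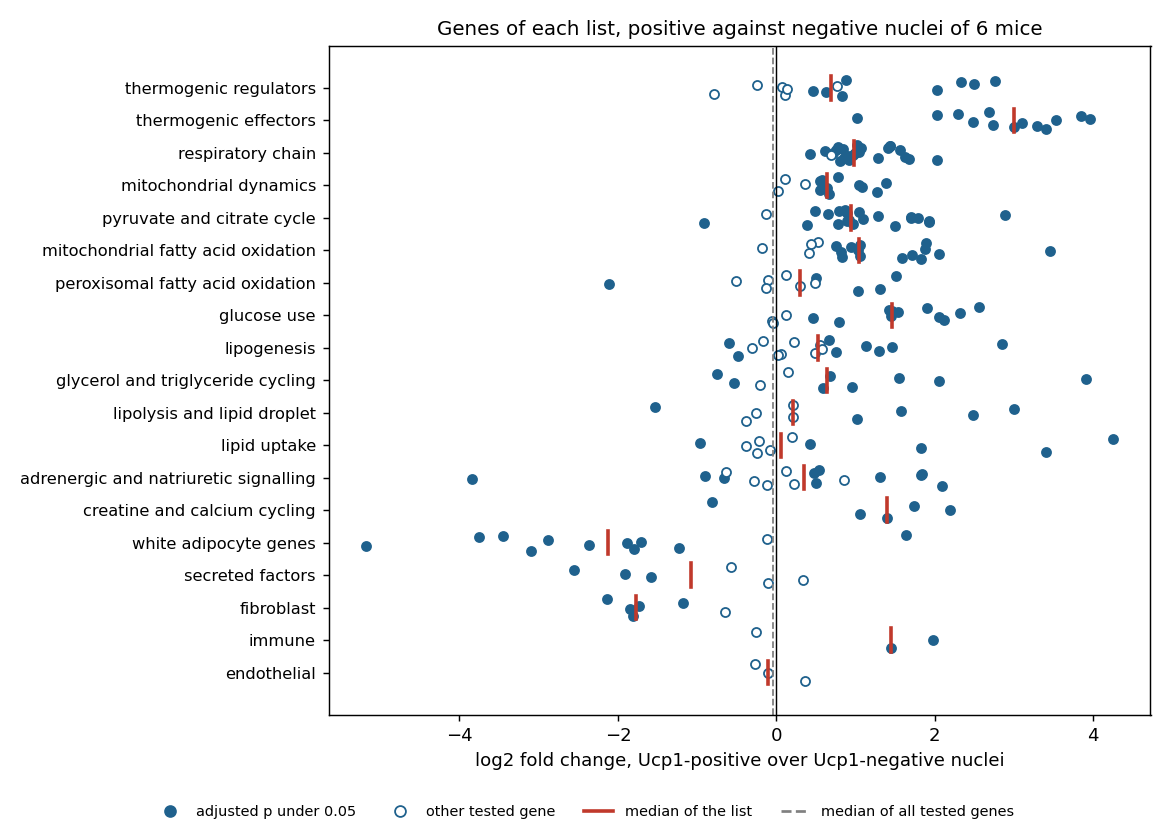
Log2 fold change between Ucp1-positive and Ucp1-negative nuclei (x axis) of each tested gene in each gene list (y axis); filled points have an adjusted p under 0.05, the red bar is the list's median and the dashed line the median of all 8520 genes, -0.05. Effectors, respiratory chain and glucose use lie to the right, and 10 of 12 white adipocyte genes lie to the left as called.

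Genes of mitochondrial energy metabolism rose together. Of the respiratory chain and ATP synthase, 23 of 24 were higher, with a median of 0.98. Cox5a of complex IV stood at 127 to 275 CPM in positive and 41.7 to 70.1 in negative nuclei (1.57 ± 0.17), and Atp5a1 of the ATP synthase at 314 to 438 against 129 to 174 (1.28 ± 0.14). Neither gene overlapped between classes. Of the pyruvate and citrate cycle genes, 20 of 22 were higher. Citrate synthase, Cs, stood at 598 to 1285 against 153 to 328 (1.78 ± 0.16), and Pdk4, the kinase that holds back pyruvate dehydrogenase, at 353 to 1341 against 51.7 to 293 (2.88 ± 0.20). Pyruvate carboxylase, Pcx, was the 1 member that was lower, by 0.91 on the log2 scale. In mitochondrial fatty acid oxidation 14 of 18 genes were higher, among them Hadha of the trifunctional protein, at 562 to 887 against 131 to 314 (1.87 ± 0.16). In glucose use 11 of 14 were higher, with Pkm (2.55 ± 0.21), Pfkl (2.11 ± 0.17) and Hk2 (1.42 ± 0.17) of glycolysis. Peroxisomal oxidation was mixed, with 4 of 11 genes higher and the transporter gene Abcd2 lower by 2.11.

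Of the glycerol and triglyceride genes 6 of 10 were higher and 2 lower. Gk (chrX:85701937-85776819, minus strand), the kinase that makes glycerol available again for triglyceride, stood at 3012 and 2671 in young 3D, 1316 and 688 in young 14D and 1883 and 1355 in aged 14D positive nuclei. Negative nuclei held 118 and 224, 235 and 81.6, and 54.6 and 48.2. The difference was 3.91 ± 0.27 (adjusted p = 3.41e-11), and the lowest positive sum was above the highest negative sum. Both glycerol 3-phosphate dehydrogenase genes were also higher, Gpd2 by 2.05 ± 0.25 and Gpd1 by 1.55 ± 0.19. From the list of lipid uptake, where 4 of 10 tested genes were higher and 1 lower, Fabp3, a fatty acid binding protein of muscle and thermogenic fat, stood at 34.7 to 211 against 0 to 10.1 (4.25 ± 0.37). The 2 lower genes were Pck1, the phosphoenolpyruvate carboxykinase of glyceroneogenesis (by 0.75), and Dgat2 of triglyceride synthesis (by 0.53). Of the genes of lipolysis and lipid droplets, 4 of 9 tested were higher (Cidea, Plin5, Plin2 and Clstn3) and 1 was lower. The lower gene was Cidec, the droplet protein of unilocular white fat, which stood at 196 to 819 against 827 to 2028 (fell by 1.53).

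The adrenergic list moved in both directions. Of 16 genes tested, 7 were higher and 3 lower. Adrb3, the main beta receptor of rodent fat cells, was lower, at 211 and 137, 429.8 and 316, and 405 and 335 in positive against 624 and 606, 625 and 420.1, and 633 and 707 in negative nuclei (fell by 0.90 ± 0.18, 6 of 6 mice, adjusted p = 2.71e-04). Adrb1, another beta receptor, was higher by 1.31 ± 0.26, although in young 3D mice it was at 14 and 19.6 in positive against 34.1 and 22.5 in negative nuclei. The alpha receptor gene Adra1a stood at 724 to 1351 against 187 to 480.4 (1.82 ± 0.17), and Gnas, the stimulatory G protein, at 654 to 2752 against 251 to 360.0 (1.84 ± 0.20). The adenylyl cyclases divided. Adcy3 stood at 164 to 527 against 37 to 138 (2.09 ± 0.21), whereas Adcy5 stood at 3.85 to 76 against 56 to 639 (fell by 3.84 ± 0.24). Of the calcium and creatine cycling genes 4 of 5 tested were higher, led by the calcium release channel gene Itpr2 (2.20 ± 0.15), and Camk2d was lower.

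White adipocyte genes fell in the positive nuclei, with 10 of 12 tested genes lower and 1 higher. Nnat (chr2:157560078-157562522, plus strand), the imprinted gene neuronatin, stood at 70.2 and 19.6, 7.65 and 14.1, and 25.3 and 7.97 in positive nuclei. In negative nuclei it stood at 1215 and 1244, 469.6 and 395, and 834 and 1227. The difference was -5.18 ± 0.25 (adjusted p = 3.58e-13). Slc7a10, a neutral amino acid transporter of the white adipocyte surface that was not on the list and was named for its small p, stood at 161 and 118, 74 and 46.2, and 127 and 71.7 against 1325 and 849, 846 and 545, and 901 and 828 (-3.28 ± 0.18). The hormone genes Retn (resistin, -2.88 ± 0.23) and Lep (leptin, -1.80 ± 0.21) were also lower, with Retn at 0 in young 3D replicate 2. Adam12 was the member that was higher (1.63 ± 0.15), and Npr3, the clearance receptor for natriuretic peptides, was at 140.4 to 752 against 166 to 558 and was not called (adjusted p = 0.70). Of 6 secreted factors tested, 3 were lower, among them Slit3 (-2.55 ± 0.19) and the adipsin gene Cfd (-1.91 ± 0.21).

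The genes of smallest p that moved alike in all 6 mice added several with other roles. Higher in positive nuclei were Acsl5, an acyl-CoA synthetase (3.46 ± 0.20), the bicarbonate transporter gene Slc4a4 (3.24 ± 0.20), Shtn1 (3.65 ± 0.22), the collagen gene Col27a1 (2.94 ± 0.18), Slc25a42, which carries coenzyme A into mitochondria (2.51 ± 0.16), Lgr6, a receptor of Wnt enhancers (4.64 ± 0.30), the ubiquitin ligase gene Rnf152 (2.75 ± 0.18) and the mitochondrial malic enzyme gene Me3 (3.98 ± 0.27), beside Esrrg and Cidea. Lgr6 was at 169 and 78.5, 208 and 128, and 211 and 143 CPM in positive and at 0.588 to 18.3 in negative nuclei. Slc4a4 stood at 2902 to 4732 against 228 to 691. Both genes were separate between the classes in every mouse. Lower were the inositol transporter gene Slc2a13 (-3.80 ± 0.21), the calcium pump gene Atp2b4 (-3.32 ± 0.19), Prr16 (-3.76 ± 0.22), the sulfotransferase gene Chst1 (-3.41 ± 0.21), the adhesion gene Alcam (-3.93 ± 0.25), Eepd1 (-3.45 ± 0.22) and Apol6 (-2.87 ± 0.19), beside Nnat, Slc7a10 and Adcy5. Thinning to 800 UMIs left 1272 called genes, and negative nuclei matched for depth left 1107.

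Lipogenesis, the making of fatty acids from acetyl units, was mixed. Of 16 genes tested, 6 were higher and 2 lower in positive nuclei. Elovl6 (chr3:129532355-129638495, plus strand), which elongates palmitate, stood at 864 and 844, 2478 and 3855, and 1444 and 2623 in positive nuclei against 96.3 and 100.02, 1079.5 and 1775, and 80.4 and 95.8 in negative nuclei (2.85 ± 0.35, adjusted p = 4.78e-07). Acly (chr11:100476353-100528000, minus strand), the cytosolic enzyme that splits citrate to acetyl-CoA, stood at 77.2 and 412, 1434 and 3750.1, and 405 and 2105 against 225 and 249.7, 709 and 2486, and 76.5 and 138. It was higher in 5 of 6 mice, by 1.30 ± 0.37 (adjusted p = 0.00774), and by 0.78 to 1.69 when 1 mouse was left out. That call was lost with DESeq2 (adjusted p = 0.173), without the mouse block (0.324), with 2 or more Ucp1 UMIs required (0.0828) and with negative nuclei of nearest depth (0.116). Fasn (0.49 ± 0.28), Acaca (0.55 ± 0.24) and Scd1 (-0.17 ± 0.23) were not called over the 6 mice, and Srebf1, a regulator of the pathway, was lower by 0.49.

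The share of nuclei with an Acly UMI, each nucleus thinned to 800 UMIs, was 6.15% and 14.3% in young 3D, 51.1% and 92.0% in young 14D and 18.2% and 69.2% in aged 14D positive nuclei. It was 14.1% and 12.9%, 29.5% and 62.9%, and 4.72% and 6.79% in the negative nuclei. The share was higher in positive nuclei in 5 of 6 mice, by a mean of 20.0 percentage points (two-sided exact sign-flip test, p = 0.09375, where 6 mice can give no less than 0.03125). It was higher in 4 of 6 mice without thinning (against all negative nuclei or those of nearest depth) and with 2 or more Ucp1 UMIs required, and the mean was 11.5 points without aged 14D replicate 2. In both classes and each of the 14D groups, replicate 2 held the higher share.

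**Figure D4:**
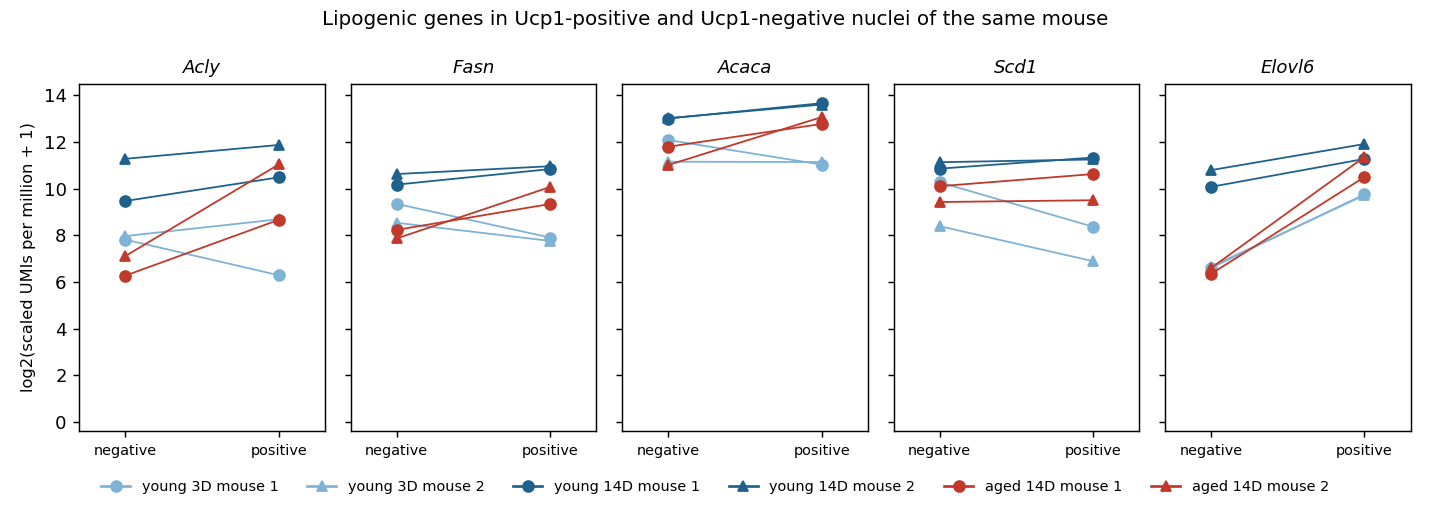
Levels of the lipogenic genes Acly, Fasn, Acaca, Scd1 and Elovl6 in Ucp1-negative and Ucp1-positive adipocyte nuclei (x axis) of the 6 mice; the y axis is log2 of scaled CPM plus 1, lines join the classes of 1 mouse, colour gives the group, and circles and triangles are replicates 1 and 2 (mouse 1 and mouse 2). Fasn is lower in positive nuclei in both young 3D mice and higher in the 4 other mice, and Elovl6 is higher in all 6.

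Within the Ucp1-positive nuclei, the second question was how they changed between 3 and 14 days of cold in young mice. Of 3351 genes tested with group and pool in the model, 88 (2.63%) were higher and 28 (0.836%) lower at 14D, 3.46% in all. In lipogenesis 12 of 16 genes were higher and none lower, with a median of 2.21 against 0.00 for all genes. Fasn, the fatty acid synthase, was at 274 and 305 CPM at 3D and 2088 and 2285 at 14D (2.89 ± 0.30, adjusted p = 3.57e-05). Scd1, the stearoyl-CoA desaturase, was at 379 and 167 and then 2941 and 2791 (3.39 ± 0.34). Acaca, acetyl-CoA carboxylase, was at 2400.1 and 3192 and then 14765 and 14263 (2.40 ± 0.25). In all 3 genes both 14D mice were above both 3D mice. Acly was at 88.6 and 583 and then 1633 and 4296 (3.50 ± 0.35). Me1, Acss2, Pnpla3, Thrsp, Mlxipl, Tkt, Scd2 and Elovl6 rose as well, by 1.67 to 3.16, while Acacb and Srebf1, at 3495 and 3497 against 5217 and 4939 and at 274 and 194 against 333 and 309, were not called.

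Most thermogenic genes were not called over the same interval. Of 12 effectors tested 3 were higher and 1 lower, and of 11 regulators none was higher and 2 were lower. Acot11 rose from 628 and 222 to 1931 and 1583 (1.93 ± 0.32) and Sept9 from 483 and 194 to 1303 and 855 (1.56 ± 0.31). Elovl3, a fatty acid elongase of thermogenic fat, was at 0 in both 3D mice and at 195 and 241 at 14D. In the other direction Ppargc1a fell from 910.1 and 4441 to 569.6 and 458 (-2.07 ± 0.44, adjusted p = 0.0109), Dio2 from 314 and 611 to 66.8 and 51.5 (-2.80 ± 0.57, a call lost with DESeq2, adjusted p = 0.886), and Esrrg from 4269 and 4385 to 2143 and 1991 (-1.06 ± 0.24). Gk, of the glycerol genes, fell from 3455 and 3775 to 1499.6 and 789 (-1.71 ± 0.27). The value of Ppargc1a rests largely on the 14 nuclei of young 3D replicate 2, without which it was -0.77 and not called. Its call was also lost with DESeq2 (adjusted p = 0.409) and without young 14D replicate 2, that of Esrrg without either young 14D mouse, without the pool term and with no filter on low counts (highest adjusted p = 0.256), and that of Sept9 without young 14D replicate 1 (0.0554). Cidea, at 1941 and 1748 against 1392 and 1449, was not called (adjusted p = 0.535).

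Of the other lists, none of 16 respiratory chain genes and none of 12 genes of mitochondrial dynamics was called between 3D and 14D. With 3.46% of all genes called, 0 calls in lists of this size say little about them. Among the genes of smallest p, Pygl, the glycogen phosphorylase of liver and fat, rose from 56.4 and 167 to 769 and 1221 (3.40 ± 0.37). Those that fell were Lhfpl2 (-3.35 ± 0.50), the epoxide hydrolase gene Ephx2 (-1.77 ± 0.26), the cytokine receptor gene Cntfr (-5.05 ± 0.76) and Slit3 (-1.87 ± 0.31), beside Gk. The brain-type creatine kinase gene Ckb fell from 177 and 111 to 7.27 and 5.89 (-4.37 ± 0.78). Slit3 was at -0.16 and not called (adjusted p = 0.936) with 2 or more Ucp1 UMIs required, Ckb lost its call without any 1 of the 4 young mice (highest adjusted p = 0.543) and Cntfr without young 3D replicate 2 (0.189). Young 3D replicate 2 enters these values with 14 nuclei. DESeq2 called 66 genes.

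The third question was whether Ucp1-positive nuclei of aged mice differed from those of young mice after 14 days of cold. Of 3351 genes, 4 (0.119%) were higher and 3 (0.0895%) lower in aged mice, and 253 had an unadjusted p under 0.05. Gulp1, an adaptor of engulfment, was at 45 and 23.5 in young and 387 and 180.0 CPM in aged positive nuclei (3.02 ± 0.38, adjusted p = 0.00196). Erbb4, a neuregulin receptor, was at 196 and 302 and then 1041 and 852 (1.94 ± 0.27), Dok6 at 59.6 and 44.1 and then 307 and 265 (2.46 ± 0.36), and Gm3289 at 199 and 181 and then 476 and 474 (1.32 ± 0.26). Lower in aged mice were Acsl5, at 1074 and 1195 CPM in young 14D mice against 258 and 455 CPM in aged 14D mice (-1.70 ± 0.27), the kinase gene Pim1, at 779 and 1034 and then 248 and 359.9 (-1.58 ± 0.26), and Ripor2, at 192 and 200.1 and then 39.7 and 18.9 (-2.74 ± 0.54). In each of the 7 genes the 2 age groups were separate, which choosing genes by a small p makes likely. The share of separate genes among all 3351 was not counted. Several of these calls were lost under other settings, with the direction kept: Gm3289 in 9 of 17 (highest adjusted p = 0.543), Pim1 in 7 of 17 (0.125), Ripor2 in 5 of 16 (0.543) and Acsl5 in 3 of 17 (0.158). Gm3289 and Pim1 lost theirs without any 1 of the 4 mice at 14D, Ripor2 without replicate 2 of either age, Acsl5 without replicate 1 of either age, Erbb4 without young 14D replicate 1 and Gulp1 without aged 14D replicate 1. None of the 5 markers, 11 regulators, 12 effectors or 16 respiratory chain genes was called. Only 0.209% of all genes were called, so 0 calls in lists of this size say little about them. For Cidea the difference was -0.43 ± 0.24 and for Esrrg 0.40 ± 0.23.

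Fasn and Scd1 in aged positive nuclei lay between their levels in young 3D and young 14D mice, and Acly overlapped with both. Fasn was at 764 and 1279 (-1.13 ± 0.25 against young 14D, adjusted p = 0.111), Scd1 at 1855 and 862 (-1.18 ± 0.28, adjusted p = 0.117) and Acly at 476 and 2501 (-1.26 ± 0.29, adjusted p = 0.117). The median of the 16 genes was -0.64 against 0.01 for all genes, and none passed the test. With 59 aged nuclei in 2 mice, a p that misses the threshold leaves differences of this size undecided. The count of called genes depended on single mice: leaving out either young 3D mouse gave 43, and leaving out young 14D replicate 1 or 2 or aged 14D replicate 1 or 2 gave 11, 13, 12 and 13. The comparisons with age and with time share the young 14D mice.

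Whether the gap between positive and negative nuclei itself depended on age was tested as an interaction over 10092 genes. At 14D the log2 fold change of positive over negative nuclei was higher in aged than in young mice for 46 genes (0.456%) and lower for 9 (0.0892%). Elovl6 had the smallest p: in young mice it was at 2437 and 3829 CPM in positive and 1080.2 and 1739.5 in negative nuclei, and in aged mice at 1418 and 2601 in positive and 80.1 and 94.7 in negative nuclei (difference of the 2 log2 fold changes 3.32 ± 0.29, adjusted p = 1.37e-10). The positive nuclei of the 2 ages overlapped and the negative nuclei did not. Negative nuclei also stood lower in both aged than in both young mice for Sept9 (3.10 ± 0.34), with 188 and 94.5 in young and 21.4 and 11 in aged negative nuclei, for Acot11 (2.69 ± 0.36) and for Prune2 (4.14 ± 0.46). Acly (2.51 ± 0.37), Gk (2.20 ± 0.31), Gpd2 (2.12 ± 0.29) and Pank1 (1.82 ± 0.28) were also called. Of the lists, lipogenesis had 6 of 16 genes called, the markers 3 of 5, the effectors 4 of 15 and the respiratory chain 0 of 25. The share of negative nuclei with 3 or more markers was 24.9% in young 14D and 5.69% in aged 14D mice. Sept9 and Acot11 are among the 5 markers, so this share partly counts the same UMIs again.

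Eln, the elastin gene, was at 5.02 and 0 in young and 33.2 and 261 in aged positive nuclei (6.35 ± 0.82), so that aged replicate 2 held most of it. The named genes whose log2 fold change was lower in aged mice were Dock8 (-2.82 ± 0.41), Cish (-3.01 ± 0.54), Irf2 (-2.04 ± 0.37), Fmo5 (-3.60 ± 0.80) and Pid1 (-2.06 ± 0.49). For Irf2, an interferon regulatory factor, young mice had 152 and 134 in positive and 177 and 187 in negative nuclei, and aged mice 99.5 and 134 against 336 and 929. The count of called genes depended on single mice and moved in both directions when 1 mouse was left out. After thinning 8 genes were called, and with negative nuclei of nearest depth 17. Of the genes named, Fmo5 lost its call in 7 of 16 settings, Pid1 in 6 of 17 (from -3.24 to -1.33), Eln in 4 of 17 (from 2.48 to 10.78) and Cish in 3 of 17, and Acot11, Prune2 and Dock8 lost theirs after thinning. Without aged 14D replicate 2, Eln, Irf2, Fmo5, Pid1 and Acly were not called, and without young 14D replicate 2 neither Fmo5 nor Pid1 was.

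The gap also changed with time in young mice, for 28 genes, 14 (0.139%) in each direction. The count was 5 after thinning, 12 with negative nuclei of nearest depth and 82 with a quality filter on nuclei. At 3D the positive nuclei held less Scd1, at 317 and 119 against 1224 and 330.3 in negative nuclei, and at 14D they held 2539 and 2419 against 1857 and 2203 (2.15 ± 0.35, adjusted p = 5.11e-04). Pnpla3 (2.59 ± 0.41), Gm49513 (2.33 ± 0.38), Pygl (2.48 ± 0.42), Aacs (1.99 ± 0.37) and Fasn (1.76 ± 0.37) changed the same way. The gap narrowed for Ppargc1a (-1.98 ± 0.30), Elovl6 (-1.96 ± 0.31), Adcy3 (-1.72 ± 0.33), Cidea (-1.36 ± 0.29) and Gk (-1.37 ± 0.30). It turned from higher to lower in positive nuclei for Cntfr (-3.54 ± 0.62) and the peroxisomal thiolase gene Acaa1b (-2.33 ± 0.45). Within young 3D, where 9.73% of all genes were called (5.57% lower and 4.16% higher), 7 of 16 lipogenic genes were lower and 1 higher in positive nuclei. Within young 14D, 6 were higher and 2 lower, where 10.2% and 10.5% of all genes were (20.7% in all). Within aged 14D, 11 of 16 were higher and none lower, where 6.11% of all genes were higher and 6.5% lower (12.6% in all). The change with time rests on both young 3D mice: 3 genes were called without replicate 1 and 2 without replicate 2. Without young 14D replicate 1 or 2, 17 and 16 genes were called, and without aged 14D replicate 1 or 2, 63 and 61. Each gene named here as changed lost its call without at least 1 of the young 3D mice. This comparison and the one with age share the young 14D mice.

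Nuclei with a single Ucp1 UMI were set beside the other positive nuclei, in CPM without further scaling and as a description. Pank1 stood at 885 to 1208 in nuclei with 1 Ucp1 UMI and 999 to 1434 in those with 2 or more. Gk stood at 469 to 3171 and 703 to 3540 and was lower with 1 UMI in 6 of 6 mice. Slc7a10 stood at 78.2 to 233 and 30.6 to 179 and was higher with 1 UMI in 5 of 6 mice. Negative nuclei with no marker were at 14.1 to 56.8 for Pank1, 6.3 to 37.1 for Gk and 677 to 1482 for Slc7a10. In all 3 genes the nuclei with 1 Ucp1 UMI overlapped in range with the other positive nuclei and not with these. Nuclei with 1 Ucp1 UMI did overlap with negative nuclei with 3 or more markers in Gk (189 to 1731) and Slc7a10 (179 to 604). They did not overlap with them in Pank1 (221 to 720).

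The 519 Ucp1-negative nuclei with 3 or more markers lay between the positive nuclei and the negative nuclei with no marker for some genes and not for others. Their median depth was 3690 UMIs, close to the 3697 of the positive nuclei, whereas the negative nuclei with no marker were shallower, at a median of 2491.5 UMIs. Pank1 stood at 221 to 720, Gk at 189 to 1731 and Slc7a10 at 179 to 604, and Nnat at 39.9 to 724 against 714 to 1727 in negative nuclei with no marker. The positive nuclei were above them in Pank1, Gk and Elovl6 and below them in Slc7a10 in 6 of 6 mice, and those with no marker lay on the other side in 6 of 6. Npr3 was lower in the marker-rich negative nuclei than in either other class in 6 of 6 mice, and Fasn was higher in the positive nuclei than in them in 2 of 6. Among the positive nuclei, 391 held an Acly UMI and 119 did not, and those with Acly held more Fasn and Acaca in 6 of 6 mice and less Npr3 in 6 of 6. In young 3D replicate 2 only 2 nuclei held Acly, and in young 14D replicate 2 only 2 did not. Ucp1 was higher in those with Acly in 3 of 6 mice.

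**Figure D5:**
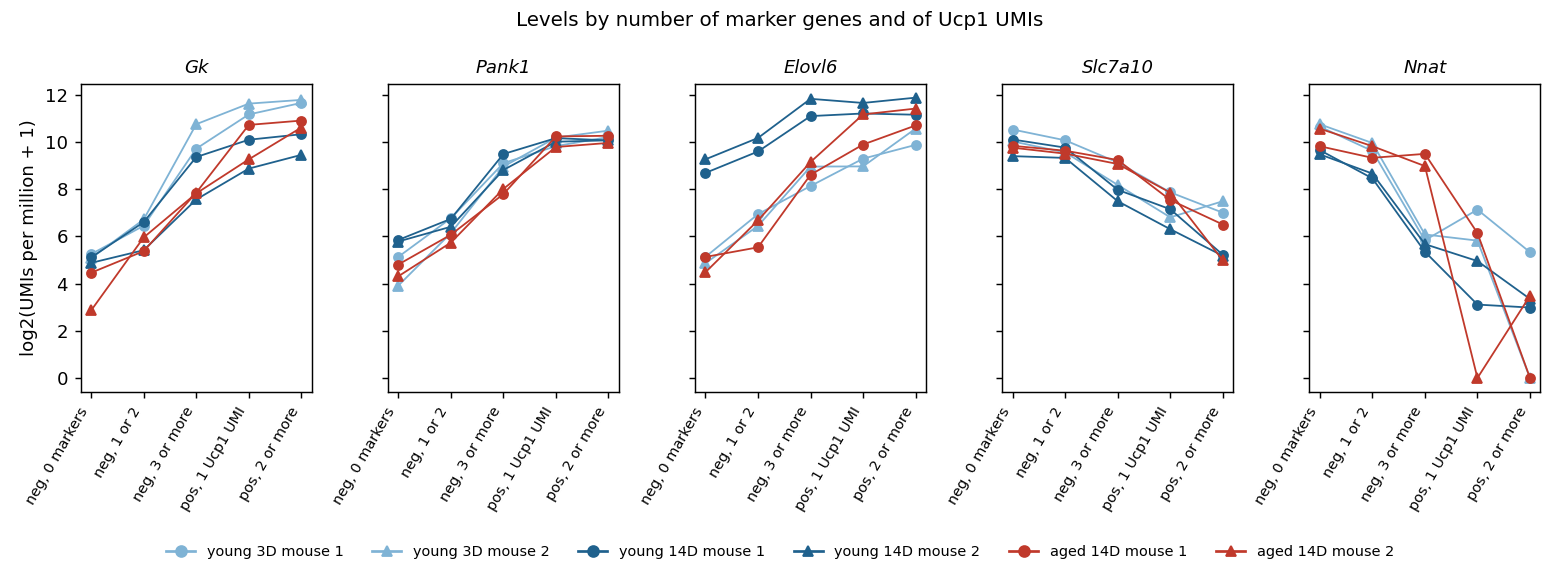
CPM (y axis, log2 of the value plus 1) of Gk, Pank1, Elovl6, Slc7a10 and Nnat in 5 classes of adipocyte nuclei (x axis), from Ucp1-negative nuclei with 0, 1 or 2, and 3 or more of the other markers to Ucp1-positive nuclei with 1 and with 2 or more Ucp1 UMIs; each line is 1 of the 6 mice, where mouse 1 and mouse 2 are replicates 1 and 2. Gk and Pank1 are lowest and Slc7a10 highest in negative nuclei with 0 or few markers, with marker-rich negative nuclei at 221 to 720 for Pank1, between 14.1 to 56.8 and 885 to 1208.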

How the data were processed

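Nuclei of iWAT were isolated, sorted and sequenced by the authors in 2 pools of hashed samples. Per the study's methods and the submitters' processing notes, the authors aligned reads with Cell Ranger to GRCm38 with intronic reads counted, removed ambient RNA with CellBender, kept genes with enough UMIs and kept singlets called by demuxEM. The deposited values are counts of UMIs per gene and nucleus in 24 aliquots, not normalized, and a gene with fewer than 6 UMIs in an aliquot was not listed there and was taken as 0. Removal of ambient RNA can take away true low counts of Ucp1. The hashtag libraries were not used here. The library labels gave only the pool, so age, temperature and replicate of an aliquot come from a metadata table among the deposited files, and 2 aliquots were summed to 1 mouse. Total UMIs per mouse ran from 852049 to 5463124. Of the barcodes, 11 occurred in both pools (1 of them Ucp1-positive) and none in 2 aliquots of a pool.

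UMIs were summed per mouse and class for the 6 mice with 10 or more Ucp1-positive nuclei. edgeR 4.0.16 in R 4.3.3 (TMM, filterByExpr, quasi-likelihood F-test, Benjamini-Hochberg adjustment over all genes tested, threshold 0.05) was run with the mouse as a block for positive against negative nuclei, with group and pool within positive nuclei, and with class within group for the interactions. Ucp1, Adipoq, Plin1, Plin4, Lipe and Pparg were left out of totals and tests. The fits were checked on simulated counts. Replicates are separate mice, 2 a group, and replicate numbers pair the groups through the shared pool; deviations from the group means of same-numbered mice correlated at 0.061, 0.043 and 0.119 between groups. Alternatives were DESeq2 1.42.0, its size factors, no low-count filter, no block, stricter rules for nuclei, thinning to 800 UMIs, negative nuclei of nearest depth, a quality filter (300 genes or more, mitochondrial share up to 5%), nuclei with 2 or more genes of the immune, endothelial, muscle or liver list left out (below, other cell types), doublets left out (Scrublet in scanpy 1.11.5, expected rate 0.05), and each mouse left out. Named genes were the 10 of smallest p in each direction that moved alike in all mice for positive against negative nuclei, the 5 of smallest p in each direction elsewhere, and list members. The members and gene lists were chosen with earlier results of these data known. Gene positions are from GENCODE M21, and promoters from RefSeq for GRCm38.p6.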

Additional observations from a re-analysis of the deposited data

Results flagged for a closer look

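In the per-mouse log2 ratio of positive to negative nuclei (scaled CPM plus 1), young 3D replicate 2 lay apart from the other 5 mice for 3 of 25 genes and values examined: Slc2a13 at -7.42, Chst1 at -7.91 and Alcam at -8.83. Its 14 positive nuclei held 0 UMIs of each of the 3 genes, so that these ratios are set by the added 1 CPM and are not measured folds. About 1 in 20 such groups is marked by chance.

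The difference between positive and negative nuclei differed between aged 14D and young 14D mice, by the interaction term (log2 units, adjusted p under 0.05), for Elovl6 at 3.32, Sept9 at 3.10, Prune2 at 4.14, Eln at 6.35, Acot11 at 2.69, Dock8 at -2.82, Cish at -3.01, Irf2 at -2.04, Fmo5 at -3.60 and Pid1 at -2.06. Between young 14D and young 3D mice it differed for Pnpla3 at 2.59, Gm49513 at 2.33, Scd1 at 2.15, Pygl at 2.48, Aacs at 1.99, Ppargc1a at -1.98, Elovl6 at -1.96, Cntfr at -3.54, Adcy3 at -1.72 and Acaa1b at -2.33. The marker-rich nuclei among the negative class were 24.9% in young 14D, 6.83% in young 3D and 5.69% in aged 14D mice. The differences run in both directions, and the part of these nuclei in them was not tested. Sept9, Acot11 and Ppargc1a are themselves among the markers that define these nuclei.

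Among nuclei with 800 or more UMIs outside the adipocyte gate, 25 of 3619 in the 6 mice (0.691%) held a Ucp1 UMI, against 0 of 990 in the TN mice.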

How the results depend on the processing

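For positive against negative nuclei (2740 genes), thinning to 800 UMIs gave 1272, negative nuclei of nearest depth 1107, leaving out 1 mouse 2127 to 2679, and no replicate block 2652. For aged against young positive nuclei (7 genes), DESeq2 gave 4, no filter on low counts 29, no replicate block (the pool term) 3, 2 or more Ucp1 UMIs 3, 3 of 5 adipocyte genes 15, doublets left out 15, other cell types left out 31, and leaving out 1 mouse 11 to 43. For young 14D against 3D (116 genes), DESeq2 gave 66, 2 or more Ucp1 UMIs 75, thinning 68, no replicate block 103, and leaving out 1 mouse 80 to 172. For the interaction with age (55 genes), DESeq2 gave 22, its size factors 84, 3 of 5 adipocyte genes 98, thinning 8, the quality filter 99, other cell types left out 100, nearest depth 17, and leaving out 1 mouse 21 to 71. For the interaction with time (28 genes) the values were 48 with the size factors, 48 with 3 of 5 adipocyte genes, 5 after thinning, 82 with the quality filter, 43 without doublets, 55 without other cell types, 12 at nearest depth and 2 to 63 when 1 mouse was left out. The share of positive nuclei in young 14D mice (19.6%) was 13.7% with 2 or more Ucp1 UMIs, 8.87% after thinning and 18.8% to 20.3% in single mice. In aged 14D mice (5.08%) it was 5.38% with 3 of 5 adipocyte genes, 5.37% at 1500 UMIs, 3.43% with 2 or more Ucp1 UMIs, 2.95% after thinning, 4.83% without other cell types and 4.93% to 5.23% in single mice, and in young 3D mice (5.79%) it was 2.70% to 8.88%. The Acly share difference of 20.0 points ran from 11.5 to 25.6 when 1 mouse was left out. No gene called both in a comparison and in its alternative changed direction. For 83 single genes, 1292 of 1413 alternative values kept direction and side of the threshold, 120 no longer passed it, 1 newly passed it and 0 reversed. The causes of these changes were not tested. Leaving out a mouse leaves some groups with 1 mouse, which is then assumed to vary like the others. With 14 to 235 positive nuclei a mouse, genes of low level were beyond reach in the within-class tests.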
